A study of Homo sapiens with 18 samples.

Results

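The expression of 40 genes of the lysosome, autophagy, and the vacuolar proton pump was examined in VCaP cells after ERG knockdown and after treatment with PBITE-1. The genes are listed by name for their known roles, and the list was made with earlier results of these data known. All 40 were found among the 22034 genes of the count table and passed the filter on low counts, which left 14164 genes to test. They comprise 18 lysosomal hydrolases and membrane proteins, 8 V-ATPase genes, 7 autophagy genes, 4 genes of the Rag GTPase and folliculin group, and the 3 MiT/TFE transcription factors TFEB, TFE3, and MITF.

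RNA-seq was performed on rRNA-depleted total RNA of 18 samples of VCaP, a cell line from a prostate cancer metastasis with the TMPRSS2:ERG fusion, with 3 samples in each of 6 groups. In the first experiment, VCaP-shERG cells, engineered with a doxycycline-inducible short hairpin RNA against ERG in the pLKO-Tet-on-puro system, received vehicle (labelled DMSO) or 1 µg/mL doxycycline (Dox); the duration of Dox was not given in the sources used here. In the second, parental VCaP cells received DMSO or 50 µM PBITE-1, a small molecule that binds the PNT domain of ERG, for 4, 8, or 12 h; the collection time of the DMSO samples was not given. Dox-treated cells without the ERG hairpin were not analysed here, so an effect of Dox itself and one of ERG loss cannot be told apart, and each treatment was tested in its own version of the line.

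Lysosomes are acidic organelles in which hydrolases break down proteins, lipids, and glycans, and the V-ATPase pumps protons across their membrane to keep them acidic. Autophagy delivers cytoplasmic cargo to them inside vesicles coated with proteins of the LC3 and GABARAP families. On the lysosomal surface, the Rag GTPases and the folliculin complex help mTORC1 to sense amino acids and to hold the MiT/TFE factors in the cytoplasm; when released, these factors enter the nucleus and bind E-box motifs in the promoters of many lysosomal and autophagy genes.

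Samples held between 11308600 and 17483423 counts, and levels are given as CPM, the counts relative to the total of the sample after TMM scaling within each experiment. ERG itself was at 448 ± 13.7 CPM (SD, n = 3) with vehicle and at 164 ± 4.63 CPM with Dox, a log2 fold change of -1.44 (limma-voom adjusted p = 3.29e-22). In the parental cells ERG was at 289 ± 8.85 CPM in DMSO and 180 ± 3.36 CPM at 4 h of PBITE-1. It was at 93.8 ± 2.94 CPM at 8 h and 97.25 ± 7.66 CPM at 12 h, so ERG RNA was lower with both treatments. The 8 luminal prostate markers examined were detected in every sample, with a summed level of 10478 to 10734 CPM with vehicle, 6607 to 6785 CPM with Dox, 7688 to 7812 CPM in DMSO, and 3668 to 4355 CPM at 12 h. Of 7 fibroblast and endothelial markers, COL1A2, DCN, and CDH5 had at most 4 counts in any sample, but the summed level of the list was higher with both treatments, at 2.10 to 2.62 CPM with vehicle, 8.61 to 10.0 CPM with Dox, 2.62 to 4.21 CPM in DMSO, and 6.86 to 10.7 CPM at 12 h, where COL1A1, the most abundant, had 62 to 110 counts. The sum is mostly COL1A1, at mean levels of 1.31 CPM in DMSO and 6.17 CPM at 12 h, and the list did not move together. From DMSO to 12 h, VWF went down (1.09 and 0.117 CPM), PECAM1 went up (0.0613 and 1.55 CPM), and LUM changed little (1.05 and 1.43 CPM). The 5 blood markers found, with PTPRC and CD3E at no more than 4 counts, summed to at most 1.71 CPM in any sample, and the 2 basal markers found to at most 5.86 CPM. Mitochondrially encoded genes took 8.06 to 10.1% of the counts of each sample, and 8.06 to 8.43% at 12 h against 9.67 to 10.1% in DMSO. The part of these markers and shares in the results was not tested. These are bulk samples, in which fewer cells that express a gene and less of its RNA per cell cannot be told apart.

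Most of the 40 genes rose, after Dox by a small amount in nearly every class, and after PBITE-1 by a large amount in a subset. Together they took 0.231 to 0.236% of all counts in the vehicle samples and 0.364 to 0.368% with Dox, with no overlap. In the parental cells the share ranged over 0.272 to 0.278% in DMSO and 0.309 to 0.311% at 4 h. It was 0.367 to 0.370% at 8 h and 0.381 to 0.387% at 12 h, and no group overlapped another. These shares are of counts without TMM scaling. With library size alone as the scaling, the median log2 fold change of all genes tested was 0.28 after Dox and -0.05 at 12 h. A gene is said here to rise or fall when its limma-voom adjusted p, over all genes tested, was under 0.05, and to be called when it also changed more than 2-fold.

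After Dox, 32 of the 40 genes rose and 1 fell, against 35.1% and 35.3% of all genes tested. Called were 3 higher (NEU1, MAP1LC3B, and GABARAPL1) and 0 lower, where 12.0% and 7.19% of all genes were called, so the genes moved often but seldom beyond 2-fold. Their median log2 fold change was 0.40, beside 0.02 over all genes tested. These values depend on the scaling: with library size alone, the median of all genes moved to 0.28 and that of the 40 genes to 0.66, and the share of called genes that were higher moved from 62.5% to 82.8%. With upper-quartile factors the medians were 0.18 and 0.57, and that share was 75.5%.

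At 4 h of PBITE-1, 20 of the 40 genes rose and 6 fell, against 26.4% and 24.7% of all genes, and 5 were called higher and 1 lower, against 7.28% and 2.99%. At 8 h, 26 rose and 7 fell, against 35.9% and 37.0%, and 11 were called higher and 2 lower, against 14.9% and 8.86%. At 12 h, 26 rose and 6 fell, against 39.4% and 39.4%, and 15 were called higher and 2 lower, against 17.1% and 15.4%. The median log2 fold changes of the 40 genes were 0.20, 0.40, and 0.52, where those of all genes tested lay at -0.01, -0.02, and -0.01. The 3 times share their DMSO samples and are not independent of each other.

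The genes called higher at all 3 times were NEU1, NPC1, MAP1LC3B, FNIP1, and MITF. NPC2, SQSTM1, WIPI1, ULK1, RRAGC, and FLCN were called from 8 h on, and CTSL, MCOLN1, GABARAPL1, and TFE3 at 12 h alone. ATG9B was called lower at all 3 times and TFEB at 8 and 12 h. In all, 19 genes rose at all 3 times, 5 fell at all 3 (CTSA, CTSZ, HEXA, ATG9B, and TFEB), and LAMP1, CTSB, and GUSB passed the test at none. The share of all genes tested that passed, or were called, at all 3 times was not computed. The counts over all 3 times therefore do not show whether the listed genes differ from other genes in this respect.

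**Figure D1:**
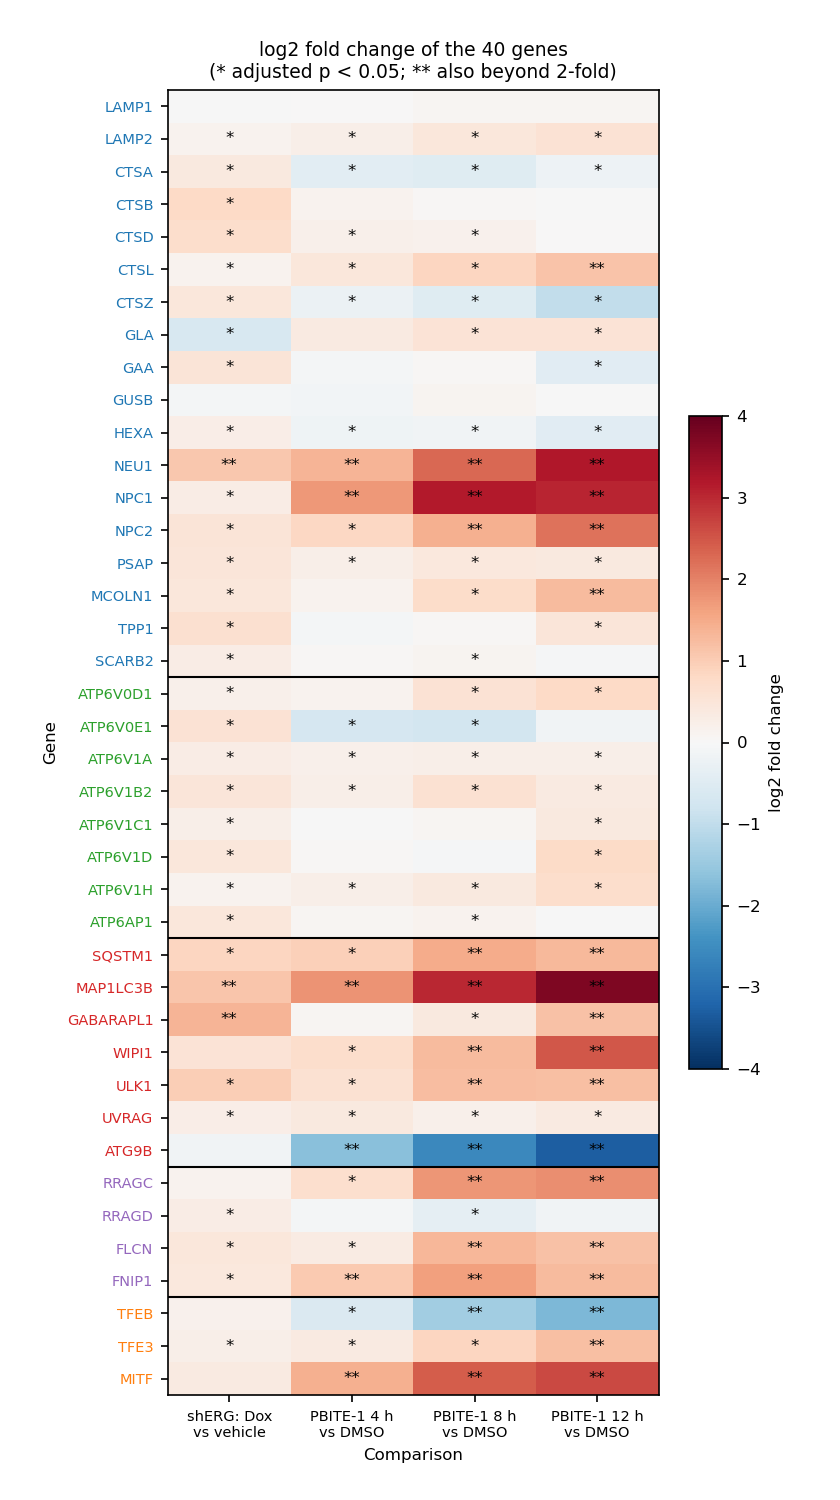
Heat map of the log2 fold change (colour, from blue for lower to red for higher) of the 40 genes (rows, grouped by class) in 4 comparisons (columns; 3 samples per group). One asterisk marks an adjusted p under 0.05 and a pair of asterisks also a change beyond 2-fold; the Dox column is pale red in nearly every row, while the PBITE-1 columns hold deep red rows such as NEU1, NPC1, and MAP1LC3B beside the blue rows of ATG9B and TFEB.

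The promoters of the 40 genes were searched for the E-box letters that MiT/TFE factors are known to bind, because these factors are themselves among the genes that moved. RefSeq promoters (GRCh38.p14) were matched for 29 of the 40 by symbol, with no entry for LAMP2, CTSB, HEXA, PSAP, ATP6V0E1, ATP6V1A, ATP6V1B2, ATP6V1C1, ATP6V1H, UVRAG, and RRAGD. In the 250 bases before the annotated start, on either strand, TCACGTG was present in 9 of 29 (31.0%), against 3.38% of all 27305 promoters and 15 of 98 (15.3%) of those of the other lysosome, V-ATPase, autophagy, and mTORC1 genes listed further on. The shorter CACGTG that it contains was found in the same 9 genes, against 6.49% of all promoters and 17.3% of the other listed genes. The palindrome TCACGTGA, which contains both, was present in 5 (17.2%), against 0.89% and 5.10%, and the variant TCATGTG in 3 (10.3%), against 2.58% and 3.06%. The 9 genes were RRAGC, FNIP1, NEU1, CTSD, LAMP1, ATP6V0D1, GAA, MCOLN1, and CTSA, with 17 sites between 15 and 193 bases before the start. The 40 genes were chosen by name from pathways in which these factors are known to bind such motifs. A share above that of all promoters can therefore follow from the choice of genes alone, and it is not a result about either treatment.

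Stretches with these sites are shown as examples for 4 genes called higher at 12 h (NEU1, RRAGC, FNIP1, and MCOLN1) and for LAMP1, which did not pass the test in any of the 4 comparisons with a control. Each is written 5′ to 3′ on the strand of its gene, with the letters of TCACGTG or its reverse complement in capitals and 20 bases on each side, cut at the annotated start.
NEU1, chr6:31862922-31862968, minus strand: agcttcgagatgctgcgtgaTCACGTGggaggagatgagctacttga
RRAGC, chr1:38859858-38859904, minus strand: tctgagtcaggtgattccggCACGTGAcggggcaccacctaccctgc
FNIP1, chr5:131797166-131797212, minus strand: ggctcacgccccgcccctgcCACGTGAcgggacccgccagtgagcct
FNIP1, chr5:131797085-131797131, minus strand: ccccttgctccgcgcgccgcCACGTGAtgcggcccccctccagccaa
MCOLN1, chr19:7522562-7522623, plus strand: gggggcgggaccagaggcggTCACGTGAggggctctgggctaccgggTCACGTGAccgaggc
LAMP1, chr13:113297026-113297122, plus strand: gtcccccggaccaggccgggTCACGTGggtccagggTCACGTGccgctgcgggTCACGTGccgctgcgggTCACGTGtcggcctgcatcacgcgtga

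In the stretch shown, LAMP1 carried 4 copies that begin 143 to 193 bases before its start, and it has a further copy 29 bases before it. Of the 9 genes with the motif, 5 rose and 2 fell at 12 h, with a median log2 fold change of 0.81. The 2 that fell, CTSA and GAA, carry 2 sites each and are not among the stretches shown. Of the 20 matched genes without the motif, 14 rose and 3 fell, with a median of 1.15. The motif is given as a description: a match is not a bound site, and its absence from this window says nothing of the factor.

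Among the 18 hydrolases and membrane proteins, 15 rose after Dox, GLA fell, and LAMP1 and GUSB did not pass the test. Of all genes tested, 35.1% rose and 35.3% fell after Dox, and 39.4% rose and 39.4% fell at 12 h of PBITE-1. At 12 h, 9 of the 18 rose (LAMP2, CTSL, GLA, NEU1, NPC1, NPC2, PSAP, MCOLN1, and TPP1), 4 fell (CTSA, CTSZ, GAA, and HEXA), and 5 did not pass (LAMP1, CTSB, CTSD, GUSB, and SCARB2). The genes with the largest increases encode a sialidase and the pair of Niemann-Pick cholesterol carriers. Some of the small rises after Dox rest on single samples: LAMP2 and MCOLN1 did not pass without vehicle replicate 2 (0.11 and 0.35, limma-voom adjusted p = 0.0745 and 0.113), MCOLN1 also without Dox replicate 1 (0.33), and CTSL without vehicle replicate 1 or 2 or Dox replicate 1 or 3 (0.13 to 0.15). The rise of CTSL after Dox was also lost by DESeq2's Wald test (adjusted p = 0.0717) and MCOLN1 and NPC1 with no filter on low counts (limma-voom adjusted p = 0.0545 and 0.0895). Single samples also decided the falls after PBITE-1 of CTSZ, which did not pass at 4 h without PBITE-1 4 h replicate 2 (-0.16, limma-voom adjusted p = 0.0543), and of HEXA, which did not pass at 4 h without PBITE-1 4 h replicate 1 (-0.15) and at 8 h without DMSO replicate 2 or PBITE-1 8 h replicate 1 (-0.14 each).

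NEU1 encodes the lysosomal sialidase, which removes sialic acid from glycoproteins (chr6:31857659-31862906, minus strand, GRCh38). It was at 16.7, 13.2, and 15.1 CPM in the DMSO samples, 38.3, 38.3, and 37.6 CPM at 4 h, 74.4, 73.4, and 71.0 CPM at 8 h, and 136, 141, and 137 CPM at 12 h. Each time lay wholly above the one before it, and the increase reached 9.25-fold at 12 h (log2 fold change 3.21 ± 0.08, SE, limma-voom adjusted p = 5.18e-31). In the VCaP-shERG cells it was at 16.5, 21.4, and 20.9 CPM with vehicle and 45.4, 40.4, and 39.5 CPM with Dox, which is 2.12-fold higher and also without overlap (log2 fold change 1.09 ± 0.09). Its partner CTSA, the protective protein that stabilizes NEU1 in the lysosome, went the other way after PBITE-1. It was at 31.6, 32.4, and 30.6 CPM in DMSO and 28.3, 25.9, and 27.2 CPM at 12 h, the latter all below the former (log2 fold change -0.22 ± 0.07, limma-voom adjusted p = 0.00647), with lower values at 4 h (-0.44) and 8 h (-0.47). After Dox, CTSA rose instead, from 37.7, 36.8, and 39.99 CPM to 53.9, 50.5, and 45.4 CPM (0.39 on the log2 scale). In the annotation, 28.5% of the exon bases of CTSA overlap genes on the other strand, and the use of strand in counting was not stated.

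NPC1, the membrane protein that passes cholesterol out of the lysosome (chr18:23506184-23586898, minus strand), was at 20.9, 18.4, and 18.7 CPM in DMSO, 63.3, 69.8, and 58.6 CPM at 4 h, 166, 179.5, and 174 CPM at 8 h, and 145, 171, and 160.5 CPM at 12 h. The increase was 8.97-fold at 8 h (log2 fold change 3.17 ± 0.08, limma-voom adjusted p = 1.44e-29) and 8.25-fold at 12 h, and the direct test between these times gave -0.12 ± 0.05. After Dox the change was small, from 18.4, 15.3, and 18.8 CPM to 23.7, 19.9, and 19.9 CPM, a log2 fold change of 0.29 that passed the test but was lost when vehicle replicate 2 or Dox replicate 1 was left out (0.19 and 0.21, limma-voom adjusted p = 0.14 and 0.0928). NPC2, the soluble protein that hands cholesterol to NPC1, was at 20.3, 19.4, and 23.2 CPM in DMSO and 39.2, 36.8, and 35.0 CPM at 4 h. It then reached 56.5, 53.0, and 59.98 CPM at 8 h and 98.3, 93.1, and 91.6 CPM at 12 h, with no overlap between any of the 4 groups. The increase at 12 h was 4.49-fold (log2 fold change 2.17 ± 0.07, limma-voom adjusted p = 4.44e-26), and that after Dox was 1.42-fold.

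CTSZ, the cysteine carboxypeptidase cathepsin Z, fell at each time. It was at 78.9, 81.6, and 73.1 CPM in DMSO, 66.5, 61.9, and 72.1 CPM at 4 h, 55.0, 58.3, and 54.0 CPM at 8 h, and 44.5, 35.6, and 37.5 CPM at 12 h, and no group overlapped the next. The log2 fold change at 12 h, -0.999 ± 0.07 (limma-voom adjusted p = 4.1e-16), lay just short of the 2-fold limit, so the gene was not called. With Dox it rose from 90.3, 80.3, and 87.3 CPM to 125, 114, and 109.7 CPM (0.44 on the log2 scale). HEXA, the alpha subunit of beta-hexosaminidase A, and GAA, the acid alpha-glucosidase of glycogen breakdown, showed the same pair of directions at a smaller size: log2 fold changes were 0.26 and 0.52 after Dox and -0.45 and -0.44 at 12 h.

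GLA, the alpha-galactosidase that is deficient in Fabry disease, was the gene that fell after Dox. It was at 8.31, 7.84, and 7.49 CPM with vehicle and 5.52, 4.04, and 5.74 CPM with Dox (log2 fold change -0.63 ± 0.17, limma-voom adjusted p = 0.00153), and at 6.77, 5.43, and 5.94 CPM in DMSO and 8.12, 8.24, and 10.2 CPM at 12 h (0.55 ± 0.15). CTSL, the cysteine protease cathepsin L, rose at each time of PBITE-1, with log2 fold changes of 0.45, 0.87, and 1.14, and by 0.15 after Dox. MCOLN1, the calcium channel of the lysosomal membrane, was scarce, at 45 to 65 counts per sample in DMSO and at 4 h, and reached 0.74 at 8 h and 1.27 at 12 h on the log2 scale.

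LAMP1, the abundant membrane glycoprotein used to mark lysosomes, passed the test in none of the 4 comparisons with a control. It was at 37.5, 36.8, and 35.3 CPM in DMSO and 40.2, 38.1, and 37.8 CPM at 12 h. The 12 h samples lay just above the DMSO samples, by 0.08 ± 0.07 on the log2 scale, which did not pass (limma-voom adjusted p = 0.24). With vehicle it was at 35.0, 34.2, and 36.9 CPM and with Dox at 35.6, 34.7, and 34.7 CPM, which overlapped; with library size alone as the scaling, LAMP1 and GUSB passed after Dox (0.25 and 0.19), where the median of all genes also moved, to 0.28. LAMP2, its relative, which is needed for fusion with autophagosomes, rose at all 3 times, to 0.57 at 12 h on the log2 scale, and by 0.14 after Dox. CTSD, the aspartic protease cathepsin D, was at 25.6, 24.9, and 24.2 CPM with vehicle and 42.7, 38.9, and 40.8 CPM with Dox, a rise without overlap (log2 fold change 0.71 ± 0.07, limma-voom adjusted p = 2.39e-09). In the parental cells it was at 29.8, 28.4, and 26.8 CPM in DMSO, 32.6, 34.1, and 30.2 CPM at 4 h, 33.7, 31.0, and 30.8 CPM at 8 h, and 28.3, 26.1, and 31.4 CPM at 12 h. The small differences at 4 and 8 h (0.19 and 0.18) passed the test, but leaving out DMSO replicate 2 or 3 lost both (0.14 to 0.19; without replicate 3, limma-voom adjusted p = 0.159 and 0.156), as did PBITE-1 4 h replicate 1 or 2 at 4 h (0.18 and 0.15) and PBITE-1 8 h replicate 1 at 8 h (0.13). Both were also lost by DESeq2's Wald test, with no filter, with upper-quartile factors, with library size alone, and with all 18 samples in a single fit (0.11 to 0.19). CTSB, the cysteine protease cathepsin B, rose by 0.80 on the log2 scale after Dox, whereas its values after PBITE-1 were 0.15, 0.06, and -0.03, none of which passed.

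The remaining members of this class changed by small amounts. PSAP, the precursor of the saposins that present lipids to hydrolases, was the most abundant of the 40 genes per kilobase of exon (121 ± 4.62 CPM per kilobase in DMSO, SD, n = 3), and rose by 0.49 after Dox and by 0.39 at 12 h. TPP1, a peptidase that removes tripeptides, rose by 0.64 and 0.49. SCARB2, the membrane receptor that carries glucocerebrosidase to lysosomes, rose by 0.30 after Dox and by 0.10 at 8 h of PBITE-1 and was at -0.05 at 12 h, which did not pass. The change of SCARB2 at 8 h was lost with library size alone (0.03) and upper-quartile factors (0.07), and at 12 h it passed as a fall with library size alone and with all 18 samples in a single fit (-0.09 each). GUSB, the beta-glucuronidase, passed in none of the 4 comparisons; its log2 fold changes lay between -0.10 and 0.10. It passed at 4 h with library size alone (-0.14) and at 8 h with at least 10 counts in every sample (0.12), and GLA passed at 4 h with that filter (0.37).

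**Figure D2:**
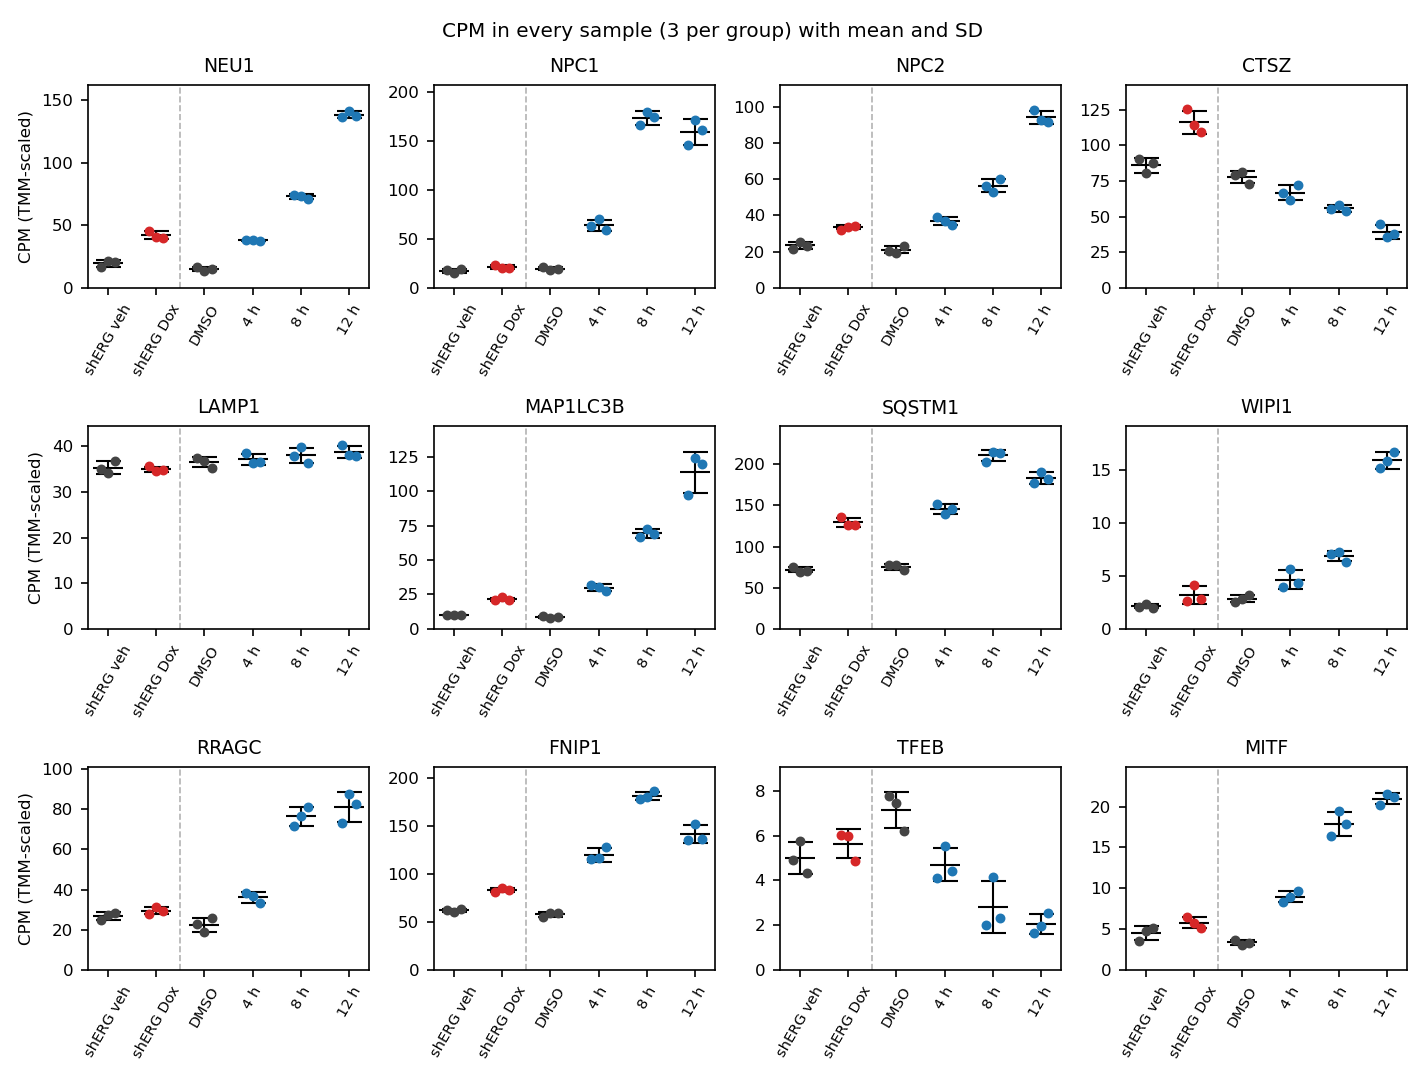
CPM (TMM-scaled, linear axes that start at 0) of 12 of the genes in every sample (points; 3 per group), with the mean (long bar) and SD, and a dashed line between the VCaP-shERG cells (grey and red) and the parental cells (grey and blue). NEU1, NPC2, MAP1LC3B, and WIPI1 climbed through 12 h, NPC1, SQSTM1, and FNIP1 were higher at 8 h than at 12 h, CTSZ and TFEB went down, and LAMP1 stayed between 34.2 and 40.2 in every sample.

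The 8 V-ATPase genes rose together after Dox, but none was called in any comparison with a control. After Dox 8 of 8 rose, where 35.1% of all genes tested rose. Their log2 fold changes lay between 0.14 and 0.58 with a median of 0.38, and their directions held under every scaling tried. For ATP6V0D1 the rise did not pass by DESeq2's Wald test (adjusted p = 0.0772), with sample quality weights (0.0567), or with no filter (0.234), nor for ATP6V1H with no filter (0.0636). Of all genes tested, 26.4%, 35.9%, and 39.4% rose at 4, 8, and 12 h of PBITE-1, and 24.7%, 37.0%, and 39.4% fell. Of the 8 V-ATPase genes, 3 rose and 1 fell at 4 h, 5 rose and 1 fell at 8 h, and 6 rose and 0 fell at 12 h, with medians of 0.10, 0.19, and 0.36. Subunits of the same pump therefore differed in size and time.

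ATP6V0D1, the d subunit of the membrane sector, was at 31.0, 30.0, and 26.9 CPM in DMSO, 43.2, 43.9, and 42.9 CPM at 8 h, and 52.8, 52.4, and 48.3 CPM at 12 h. The increase at 12 h was 1.75-fold, without overlap (log2 fold change 0.81 ± 0.07, limma-voom adjusted p = 2.22e-13). With Dox its samples, at 39.0, 32.6, and 29.9 CPM, overlapped those with vehicle, at 31.3, 26.8, and 30.5 CPM, and the rise of 0.20 was lost without Dox replicate 1 (0.10, limma-voom adjusted p = 0.327). ATP6V1H, the regulatory H subunit of the catalytic sector, rose at all 3 times, from 83.0, 76.7, and 81.7 CPM in DMSO to 99.6, 93.4, and 91.1 CPM at 4 h, 112, 102, and 105 CPM at 8 h, and 137, 128, and 131 CPM at 12 h. Each group lay above the one before it, and the change at 12 h was 0.71 ± 0.05 on the log2 scale. After Dox it rose from 85.9, 81.8, and 89.6 CPM to 91.7, 93.3, and 98.6 CPM (0.14), which did not pass without vehicle replicate 2 (0.11) or Dox replicate 3 (0.11). ATP6V0D1 likewise failed without vehicle replicate 2 (0.13).

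ATP6V1D, the D subunit of the central stalk, showed no early change and a late one. It was at 30.0, 30.4, and 30.9 CPM in DMSO, 32.4, 32.1, and 29.4 CPM at 4 h, 30.4, 29.5, and 27.8 CPM at 8 h, and 52.2, 52.3, and 50.9 CPM at 12 h. The 12 h samples stood above all other parental samples, and the direct test of 12 h against 8 h gave 0.82 ± 0.07 (limma-voom adjusted p = 2.61e-13). With vehicle it was at 35.8, 37.6, and 33.4 CPM and with Dox at 45.8, 48.4, and 52.0 CPM (0.45).

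ATP6V0E1, the small e subunit of the membrane sector, moved the other way at the early times. It was at 27.7, 29.2, and 29.2 CPM in DMSO, 17.2, 18.1, and 19.0 CPM at 4 h, and 17.6, 17.5, and 16.4 CPM at 8 h, and came back to 28.7, 23.0, and 27.2 CPM at 12 h. The early samples lay wholly below DMSO (log2 fold changes -0.66 ± 0.09 and -0.74 ± 0.09), the 12 h samples overlapped DMSO (-0.14, which passed at -0.18 with library size alone and with all 18 samples in a single fit), and 12 h exceeded 8 h by 0.60 ± 0.09. After Dox it had the largest rise of the 8 genes, from 33.3, 32.7, and 32.8 CPM to 50.1, 50.6, and 47.1 CPM (0.58 ± 0.07, limma-voom adjusted p = 1.17e-08).

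Of the other 4, ATP6V1A, the catalytic subunit, rose by 0.20, 0.23, and 0.24 on the log2 scale at the 3 times. ATP6V1B2, which forms the hexamer with it, rose by 0.60 at 8 h and by less, 0.35, at 12 h (12 h against 8 h, -0.25 ± 0.05). ATP6V1C1, which joins the sectors, was at -0.00 at 4 h and 0.08 at 8 h, neither past the test, and rose by 0.38 at 12 h. ATP6AP1, an accessory protein of pump assembly, rose by 0.46 after Dox and by 0.14 at 8 h, and was at -0.02 at 12 h; its change at 8 h did not pass without DMSO replicate 3 or PBITE-1 8 h replicate 1 (0.12 and 0.11), or with library size alone (0.08).

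**Figure D3:**
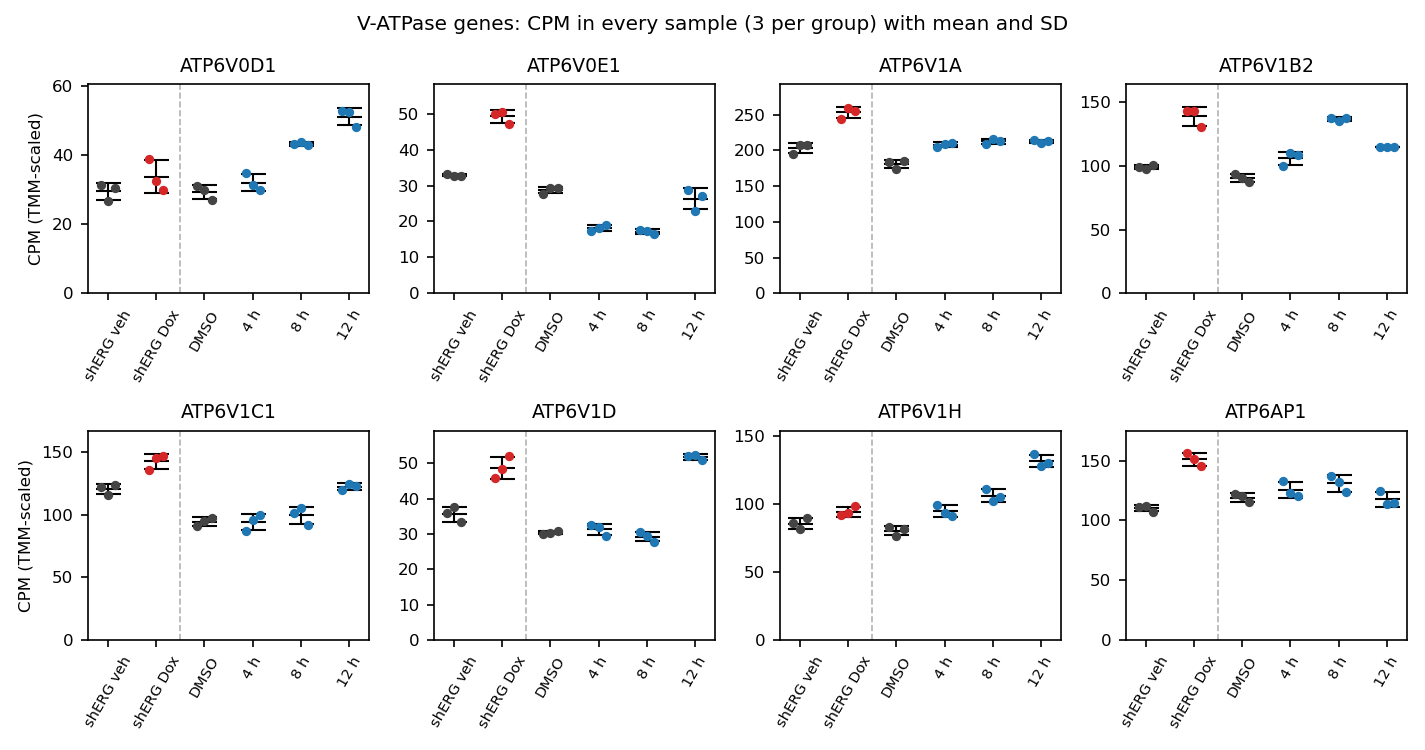
CPM (TMM-scaled, linear axes that start at 0) of the 8 V-ATPase genes in every sample (points; 3 per group) with the mean (long bar) and SD; grey points are vehicle and DMSO, red Dox, and blue PBITE-1. ATP6V0E1 dipped at 4 and 8 h, ATP6V1D was higher at 12 h alone, and ATP6V1H climbed through all 3 times.

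Autophagy genes held the largest increase of the 40. Of the 7, 5 rose after Dox (SQSTM1, MAP1LC3B, GABARAPL1, ULK1, and UVRAG), with WIPI1 and ATG9B not past the test. At 12 h of PBITE-1, 6 rose and ATG9B fell, with a median log2 fold change of 1.21. Of all genes tested, 35.1% rose after Dox and 39.4% at 12 h.

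MAP1LC3B encodes LC3B, the ubiquitin-like protein that is joined to lipid on the autophagosome membrane (chr16:87383995-87404779, plus strand). It was at 9.46, 7.51, and 8.62 CPM in DMSO, 32.0, 30.3, and 27.2 CPM at 4 h, 66.4, 72.6, and 68.8 CPM at 8 h, and 96.9, 124, and 119.5 CPM at 12 h. No group overlapped another, and the increase at 12 h was 13.3-fold (log2 fold change 3.74 ± 0.12, limma-voom adjusted p = 2.06e-26). With Dox it rose 2.17-fold, from 9.81, 9.87, and 10.0 CPM to 20.9, 22.8, and 21.0 CPM (log2 fold change 1.12 ± 0.11). The near-identical copy MAP1LC3B2 had 0 to 8 counts per sample, and how reads shared by the copies were counted is not known. GABARAPL1, of the related GABARAP branch, differed in its course, with log2 fold changes of 0.08 at 4 h, which did not pass, 0.40 at 8 h, and 1.16 at 12 h. After Dox it had the largest increase of the 40 genes, from 10.6, 9.60, and 7.41 CPM to 24.6, 23.2, and 21.8 CPM, or 2.56-fold (log2 fold change 1.35 ± 0.12, limma-voom adjusted p = 1.52e-10).

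SQSTM1 encodes p62, the receptor that ties ubiquitinated cargo to LC3. It was at 77.3, 77.5, and 71.0 CPM in DMSO, 152, 139, and 146 CPM at 4 h, 203, 215, and 214 CPM at 8 h, and 177, 191, and 182 CPM at 12 h. All treated samples lay above DMSO, the highest at 8 h (log2 fold change 1.49 ± 0.05, limma-voom adjusted p = 3.74e-26), and 12 h was below 8 h by a difference of -0.20 ± 0.04. With Dox it rose from 75.5, 69.4, and 70.6 CPM to 136, 126, and 126 CPM (0.85). In the annotation, 22.0% of its exon bases overlap MGAT4B and MRNIP on the other strand.

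WIPI1, which binds phosphatidylinositol 3-phosphate on the forming autophagosome, was scarce in DMSO and climbed late. It was at 2.50, 2.81, and 3.20 CPM in DMSO (38 to 56 counts), 3.96, 5.61, and 4.29 CPM at 4 h, 7.06, 7.23, and 6.28 CPM at 8 h, and 15.1, 15.8, and 16.7 CPM at 12 h (203 to 248 counts). It more than doubled between 8 and 12 h (log2 difference 1.20 ± 0.13, limma-voom adjusted p = 2.57e-10) and was 5.55-fold above DMSO at 12 h. With Dox it was at 2.62, 4.12, and 2.79 CPM and with vehicle at 2.08, 2.30, and 1.95 CPM, which did not overlap but did not pass (log2 fold change 0.55 ± 0.26, limma-voom adjusted p = 0.0651). At 4 h, the rise of 0.69 did not pass without PBITE-1 4 h replicate 2 (0.54, limma-voom adjusted p = 0.0592), and after Dox the change passed without Dox replicate 1 (0.68, limma-voom adjusted p = 0.0378). It also passed after Dox by edgeR's quasi-likelihood test (adjusted p = 0.0396), with sample quality weights (0.0369), with at least 10 counts in every sample (0.0265), with upper-quartile factors (0.018), and with library size alone (0.00749). Whether WIPI1 passed the test after Dox thus depends on the method. Of its exon bases, 28.1% overlap ARSG and a non-coding gene on the other strand.

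ULK1, the kinase that starts autophagy, rose by 0.61, 1.22, and 1.21 on the log2 scale at the 3 times and by 0.98 after Dox. UVRAG, a partner of Beclin 1 in vesicle maturation, rose by 0.40, 0.20, and 0.35, and by 0.26 after Dox; its change at 8 h did not pass without DMSO replicate 2 or 3 or PBITE-1 8 h replicate 2 or 3 (0.16 to 0.20), nor with no filter, upper-quartile factors, or library size alone (0.13 to 0.19). ATG9B, of the ATG9 family of lipid scramblases, was the member that fell, and its values rest on few counts. The DMSO samples held 23 to 31 counts of it, and with PBITE-1 there were 5 to 8 counts after 4 h, 0 to 12 after 8 h, and 0 to 6 after 12 h, or 1.51, 1.89, and 1.43 CPM in DMSO and 0.298, 0.392, and 0 CPM at 12 h. The groups did not overlap, and the fitted log2 fold change at 12 h was -3.28 ± 0.70 (limma-voom adjusted p = 5.8e-05). Its size rests on single samples: it was -2.10 without PBITE-1 12 h replicate 3 and -3.99 without replicate 2, and the value of -2.58 at 8 h became -1.55 without PBITE-1 8 h replicate 3 and -3.44 without replicate 2. The call at 4 h was lost when no filter on low counts was used, and with at least 10 counts required in every sample the gene was not tested. After Dox it did not pass, and with vehicle it was at 1.66, 0.947, and 0.674 CPM and with Dox at 0.799, 0.933, and 1.01 CPM, which overlapped. Of its exon bases, 12.3% overlap NOS3 on the other strand.

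Within the Rag and folliculin group, 3 of 4 genes were called higher at 8 and at 12 h of PBITE-1, and RRAGD was not. Of all genes tested, 14.9% and 17.1% were called higher at these times. After Dox 3 of 4 rose, none of them beyond 2-fold, where 35.1% of all genes rose.

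RRAGC, one of the Rag GTPases that recruit mTORC1 to the lysosome (chr1:38838198-38859823, minus strand), was at 22.7, 18.9, and 25.9 CPM in DMSO, 38.5, 36.8, and 33.1 CPM at 4 h, 71.8, 76.7, and 81.0 CPM at 8 h, and 73.2, 87.7, and 82.8 CPM at 12 h. It was 3.63-fold higher at 12 h (log2 fold change 1.86 ± 0.09, limma-voom adjusted p = 9.54e-22), and most of this was reached between 4 and 8 h, where the difference was 1.08 ± 0.08. With Dox it was at 27.7, 31.2, and 29.4 CPM and with vehicle at 24.7, 27.5, and 28.1 CPM, which overlapped (0.13, limma-voom adjusted p = 0.145). This change passed with library size alone (0.39), upper-quartile factors (0.29), and at least 10 counts in every sample (0.18). Its close paralog RRAGD was at 45.3, 42.9, and 44.0 CPM in DMSO, 33.6, 33.5, and 37.3 CPM at 8 h, and 39.3, 40.1, and 41.0 CPM at 12 h. It was lower than DMSO at 8 h (-0.35 ± 0.07) and did not pass at 12 h (-0.13, but -0.17 and past the test with library size alone or all 18 samples in a single fit, and -0.14 with no filter), so the paralogs moved in different directions at 8 h. After Dox RRAGD rose, from 49.1, 48.8, and 50.2 CPM to 60.5, 60.1, and 60.2 CPM (0.29).

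FLCN, folliculin, acts on the Rag GTPases in a complex with FNIP1. FLCN was at 19.6, 17.9, and 19.1 CPM in DMSO, 26.6, 23.3, and 21.6 CPM at 4 h, 47.3, 44.3, and 50.3 CPM at 8 h, and 40.2, 46.1, and 40.9 CPM at 12 h. All treated samples were above DMSO, with the largest change at 8 h (log2 fold change 1.32 ± 0.08, limma-voom adjusted p = 3.06e-17). FNIP1 followed the same order, at 55.0, 59.6, and 59.6 CPM in DMSO, 115, 117, and 128 CPM at 4 h, 178, 179.7, and 186 CPM at 8 h, and 135, 152, and 136 CPM at 12 h. It was 3.12-fold above DMSO at 8 h and came down again by -0.36 ± 0.05 on the log2 scale between 8 and 12 h (limma-voom adjusted p = 3.4e-08), whereas for FLCN that difference, -0.15 ± 0.07, did not pass. After Dox the pair rose by 0.45 and 0.42; FNIP1 was at 62.9, 60.2, and 63.4 CPM with vehicle and 80.8, 84.9, and 83.3 CPM with Dox, and FLCN at 24.4, 21.9, and 24.9 CPM and 31.0, 33.5, and 32.2 CPM. RRAGC and FLCN share 1183 and 1161 exon bases with another annotated gene on the same strand, and how such reads were assigned is not known.

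The 3 MiT/TFE factors moved in opposite directions after PBITE-1. MITF, the melanocyte-lineage member of the family (chr3:69739435-69968337, plus strand), was at 3.68, 3.05, and 3.31 CPM in DMSO, 8.33, 8.93, and 9.68 CPM at 4 h, 16.4, 19.4, and 17.8 CPM at 8 h, and 20.2, 21.6, and 21.2 CPM at 12 h. No group overlapped another, and it was 6.27-fold above DMSO at 12 h (log2 fold change 2.65 ± 0.16, limma-voom adjusted p = 2.52e-18). TFE3 rose by a smaller amount, from 15.6, 18.1, and 15.3 CPM in DMSO to 22.0, 20.6, and 19.9 CPM at 4 h, 29.3, 31.2, and 28.9 CPM at 8 h, and 35.9, 37.7, and 39.1 CPM at 12 h, again without overlap (log2 fold change at 12 h 1.21 ± 0.08).

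TFEB (chr6:41683978-41736259, minus strand) fell. It was at 7.75, 7.45, and 6.22 CPM in DMSO, 4.12, 5.54, and 4.43 CPM at 4 h, 1.98, 4.13, and 2.33 CPM at 8 h, and 1.64, 1.96, and 2.55 CPM at 12 h. All treated samples lay below all DMSO samples, and the log2 fold change was -1.40 ± 0.22 at 8 h and -1.78 ± 0.24 at 12 h (limma-voom adjusted p = 2.03e-08). These rest on 109 to 122 counts per sample in DMSO and 22 to 38 at 12 h. mRNA levels do not show where in the cell the proteins are, which is the step at which these factors are known to be controlled.

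After Dox, TFE3 was the member of this family that rose, from 20.6, 17.5, and 17.9 CPM to 22.4, 22.5, and 21.2 CPM (log2 fold change 0.25 ± 0.09, limma-voom adjusted p = 0.017), and this was lost without vehicle replicate 2 or 3 (0.20 and 0.22, limma-voom adjusted p = 0.0907 and 0.0591). TFEB was at 4.91, 5.75, and 4.34 CPM with vehicle and 6.03, 5.99, and 4.88 CPM with Dox, and MITF at 3.49, 4.80, and 5.17 CPM and 6.47, 5.75, and 5.12 CPM. Both overlapped, with log2 fold changes of 0.17 and 0.36 that did not pass. With other settings MITF did pass, at 0.63 with library size alone, 0.53 with upper-quartile factors, and 0.41 with at least 10 counts in every sample, and TFEB at 0.43 with library size alone (limma-voom adjusted p between 0.00444 and 0.0425). Per kilobase of exon, TFEB and MITF were 2 of the 4 scarcest of the 40 genes with vehicle, at 0.885 ± 0.125 and 0.625 ± 0.123 CPM per kilobase (SD, n = 3).

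The changes between times were also tested without the DMSO samples. From 4 to 8 h, 3 of the 40 genes were called higher (NPC1, MAP1LC3B, and RRAGC) and 0 lower, where 4.43% and 2.22% of all genes were called. From 8 to 12 h, WIPI1 was called higher and none was called lower, where 3.48% and 6.59% of all genes were called. By the adjusted p alone, 21 rose and 4 fell from 4 to 8 h, against 26.7% and 26.3% of all genes, and 18 rose and 9 fell from 8 to 12 h, against 27.8% and 32.5%. The 9 were GAA, HEXA, CTSZ, NPC1, SCARB2, ATP6V1B2, ATP6AP1, SQSTM1, and FNIP1, so NPC1, SQSTM1, and FNIP1 were past their highest measured level by 12 h, while NEU1 (0.92 ± 0.05), NPC2 (0.74 ± 0.06), MAP1LC3B (0.71 ± 0.07), and GABARAPL1 (0.77 ± 0.08) still rose on the log2 scale.

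The responses to Dox and to 12 h of PBITE-1 were compared gene by gene. Of the 40 genes, 22 rose in both, against 18.5% of all genes tested. Taken singly, 32 of the 40 rose after Dox and 26 at 12 h, so a large overlap follows from these counts alone. Whether the responses of the 40 genes were linked was not tested. CTSA, CTSZ, GAA, and HEXA rose after Dox and fell at 12 h, as did 8.69% of all genes, and GLA fell after Dox and rose at 12 h. The difference of the responses, tested as an interaction over all 18 samples, was called higher for 8 genes (NPC1, MAP1LC3B, MITF, NEU1, WIPI1, RRAGC, NPC2, and GLA) and lower for 3 (ATG9B, TFEB, and CTSZ), where 13.0% and 15.9% of all genes were called. With library size alone, the median of all genes in this contrast moved from -0.02 to -0.28, the share of called genes that were higher from 44.9% to 30.0%, and the count of the 40 genes called lower from 3 to 8. For ULK1 and GABARAPL1 the difference did not pass (0.19 ± 0.11 and -0.23 ± 0.15), which does not show that the responses were alike. Treatment and cell line changed together in this contrast and cannot be told apart.

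**Figure D4:**
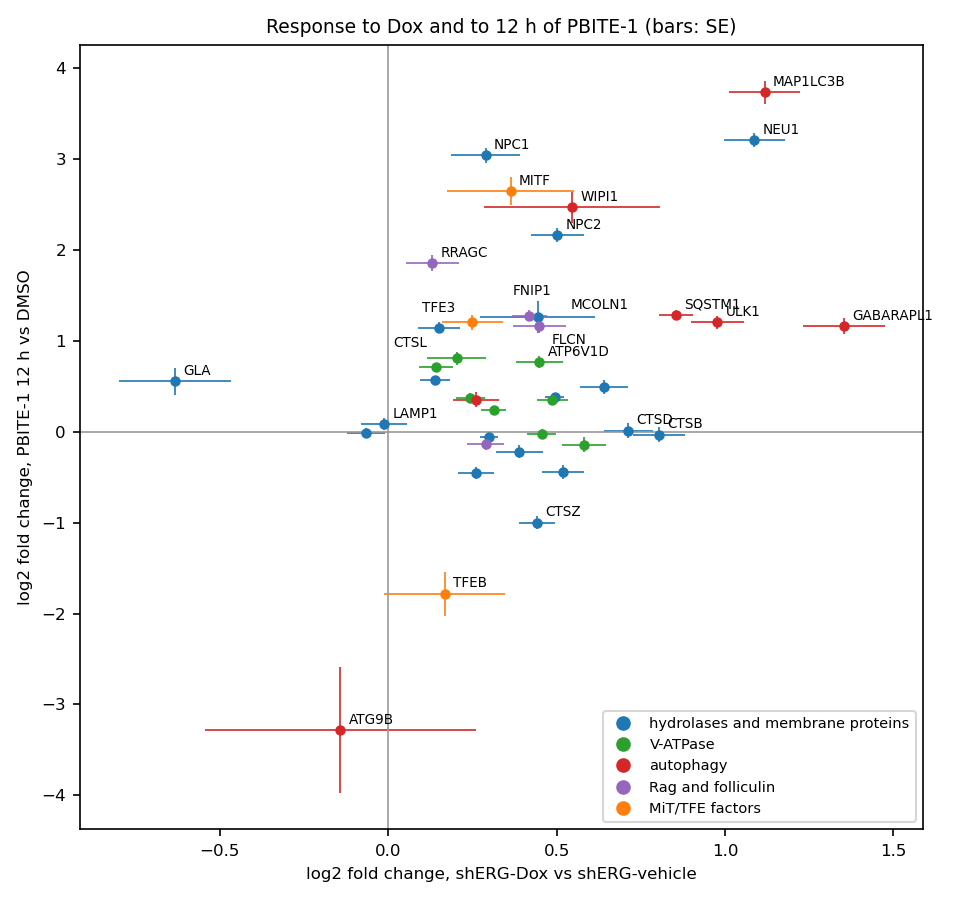
Log2 fold change after Dox (x axis) against that at 12 h of PBITE-1 (y axis) for each of the 40 genes (points coloured by class; bars are SE). Most points lie right of 0, within 0.1 to 1.4 on the x axis, while on the y axis they spread from ATG9B and TFEB below to NEU1 and MAP1LC3B above; GLA is the point in the upper left.

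Other genes of the same pathways, not among the 40, were examined in 4 lists. Their counts stand beside those of all genes tested, of which 35.1% rose and 35.3% fell after Dox. At 12 h of PBITE-1, 39.4% of all genes rose and 39.4% fell. Of 41 other lysosomal proteins tested, 29 rose and 4 fell after Dox, and 20 rose and 16 fell at 12 h of PBITE-1, with median log2 fold changes of 0.43 and 0.23. LGMN, the asparagine endopeptidase legumain, was at 17.5 ± 0.526 CPM (SD, n = 3) in DMSO and 80.6 ± 1.82 CPM at 12 h (2.20 on the log2 scale). PPT1, a thioesterase that removes palmitate, fell from 129.8 ± 6.15 to 47.7 ± 3.62 CPM (-1.45), and GALC, the galactosylceramidase, from 17.4 ± 1.90 to 6.80 ± 0.84 CPM (-1.34). CTSF, cathepsin F, was at 28.6 ± 1.43 CPM with vehicle and 104 ± 2.39 CPM with Dox (1.86).

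Of 14 other V-ATPase genes, 7 rose and 2 fell after Dox, and 7 rose and 3 fell at 12 h. ATP6V1C2, the tissue-restricted form of the C subunit, rose from 5.84 ± 1.40 CPM in DMSO to 23.8 ± 4.33 CPM at 12 h (2.05) and was called after Dox too (1.07). ATP6V0E2, the other e subunit, fell from 144 ± 1.87 CPM to 55.7 ± 6.66 CPM (-1.38), at a time when ATP6V0E1 had come back to the DMSO range.

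Of 36 other autophagy genes, 22 rose and 4 fell after Dox, and 23 rose and 3 fell at 12 h. OPTN, optineurin, a cargo receptor like SQSTM1, was at 14.5 ± 0.856 CPM in DMSO and 123 ± 19.4 CPM at 12 h (8.43-fold, limma-voom adjusted p = 3.43e-25) and rose 4.66-fold after Dox. ATG2A, a lipid transfer protein, rose by 1.36 and 1.38 at 8 and 12 h on the log2 scale. MAP1LC3A, a further LC3 gene, was called after Dox (1.17 ± 0.419 and 6.01 ± 0.597 CPM) and rose by 0.77 at 12 h.

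Of 29 other genes of mTORC1 control at the lysosome, 9 rose and 11 fell after Dox, and 13 rose and 8 fell at 12 h, with medians of -0.03 in both. At 12 h, 2 were called higher and 3 lower, where 17.1% and 15.4% of all genes were called. The 2 called higher were inhibitors of mTORC1 that are known to be induced by stress. DDIT4 was at 3.92 ± 0.384 CPM in DMSO, 261 ± 25.5 CPM at 4 h, and 538 ± 26.5 CPM at 12 h, a log2 fold change of 7.09 ± 0.17 (limma-voom adjusted p = 3.1e-31), but fell by 0.52 after Dox. SESN2 was at 2.58 ± 0.559 CPM in DMSO and 139 ± 23.0 CPM at 12 h (5.76 ± 0.24), and rose by 1.00 after Dox. SEH1L, a subunit of the GATOR2 complex and of the nuclear pore, was called lower after Dox (-1.24) and at 12 h (-1.37).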

How the data were processed

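RNA of 18 VCaP samples was sequenced as paired-end reads after rRNA depletion. The authors deposited a table of whole-number counts per gene for all samples, without normalization. The paper's methods name Kallisto, and the submitters' processing notes name STAR, featureCounts, and hg38, so which tool made the counts, and whether strand was used, is not settled here. Samples were grouped by their treatment labels. The paper describes the replicates as biological, without saying whether they were separate cultures, and p-values measure the spread between these samples.

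The 40 genes, their classes, and the lists of other genes were chosen with earlier results of these data known. Genes were matched by Ensembl identifier and symbol, and positions are from GENCODE 29 (GRCh38). Genes were kept by edgeR's filterByExpr (14164 of 22034; at least 99.9% of counts), scaled with TMM factors, and tested by limma-voom with moderated variances (R 4.3.3, edgeR 4.0.16, limma 3.58.1), with Benjamini-Hochberg adjustment over all genes tested. VCaP-shERG (6 samples) and parental cells (12 samples) were fitted separately, and the difference of responses over all 18. On simulated counts for these 7 comparisons, 80 to 89 of 100 genes changed by a log2 fold of 1 and 98 to 100 of 100 changed by 2 were recovered, with 8 to 15 false calls among 14164 genes. Each simulation changed 200 genes, as many up as down, and scored them by an adjusted p under 0.05 without the 2-fold limit. In the data far more genes passed and calls were not even in direction, so the simulation does not test the scaling there.

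Genes with values for every sample were TFEB, TFE3, MITF, SQSTM1, MAP1LC3B, LAMP1, CTSD, and, in each class, the 3 with the most positive and the 3 with the most negative log2 fold change among those that passed the test in any comparison with a control; GABARAPL1 was added after its values were seen. Of each other list, at most the 2 most positive and 2 most negative called genes per comparison without overlap between groups were named. Replicates differed by more than sampling noise (chi-square per degree of freedom 1.70 to 4.96), and no sample was left out. The alternatives took DESeq2 1.42.0 or the quasi-likelihood test of edgeR, RLE or upper-quartile factors, library size alone, other filters and thresholds, other samples in the fit, sample weights, a replicate block, and leaving out each sample.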

Additional observations from a re-analysis of the deposited data

Results flagged for a closer look

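For 11 of the 40 genes, the change at 12 h of PBITE-1 differed from the change after Dox by more than 2-fold in the interaction test over all 18 samples. Of the 40 genes, 20.0% were called higher and 7.50% lower, where 13.0% and 15.9% of all genes tested were called. The differences (PBITE-1 12 h minus Dox, log2 scale) were 2.71 for NPC1, 2.58 for MAP1LC3B, 2.24 for MITF, 2.08 for NEU1, 1.89 for WIPI1, 1.69 for RRAGC, and 1.62 for NPC2, all of which rose at 12 h and rose less, or did not pass the test, after Dox. They were -3.18 for ATG9B and -1.99 for TFEB, which fell at 12 h and did not pass after Dox. The value for ATG9B rests on 0 to 6 counts per sample at 12 h, and its change from DMSO moved between -3.99 and -2.10 when single samples were left out. For CTSZ (-1.48) and GLA (1.15), the responses had opposite directions. The treatments were given to different versions of the line, so treatment and line cannot be told apart.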

How the results depend on the processing

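The 15 and 11 genes called higher at 12 and 8 h of PBITE-1 and the 3 called higher after Dox were also the counts of edgeR's quasi-likelihood test and of DESeq2's Wald test, and 15 was the lowest count at 12 h under any alternative. Of the counts, 500 recomputed values stayed within 1.5 times the reported one. With a fold limit of 1.5, calls after Dox were 8 higher and 1 lower, at 4 h 10 and 3, from 4 to 8 h 10 and 1, from 8 to 12 h 7 higher, and for the difference of responses 13 and 9. With upper-quartile factors and with library size alone, 5 and 6 genes were called higher after Dox, and 5 and 8 lower for the difference of responses. With at least 10 counts in every sample, which leaves ATG9B out of the genes tested, none (0) was called lower at 4 h and 1 each at 8 and 12 h, and with no filter 0 at 4 h. Leaving out each sample in turn moved the count called lower between 0 and 1 from 4 to 8 h (1 without PBITE-1 8 h replicate 2) and from 8 to 12 h (1 without PBITE-1 8 h replicate 3), and that of genes falling from 4 to 8 h between 2 and 4 (2 without PBITE-1 8 h replicate 1).

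Direction reversed for log2 fold changes near 0 that had not passed the test. With DESeq2's Wald test these were ATP6V1C1 at 4 h (6e-04) and GUSB at 12 h (4e-04), with RLE factors GUSB at 12 h (2e-04), with all 18 samples in a single fit CTSD at 12 h (-0.0263), and with sample quality weights ATP6V1C1 at 4 h (0.0111). With at least 10 counts in every sample they were ATP6V1C1 at 4 h (0.0068), GUSB at 12 h (0.0017), and LAMP1 after Dox (0.0359). With upper-quartile factors, ATG9B (0.0186), GUSB (0.0951), and LAMP1 (0.149) reversed after Dox. With library size alone, so did ATG9B (0.117), GUSB (0.195), and LAMP1 (0.249), of which GUSB and LAMP1 then passed, and also ATP6V1D (-0.0111) and LAMP1 (-0.0229) at 4 h, CTSB (-0.0042), GAA (-0.023), LAMP1 (-0.0021), and TPP1 (-0.0221) at 8 h, and CTSD (-0.0264) at 12 h. Leaving out each sample in turn gave ranges across 0 for LAMP1 (-0.0383 to 0.0181) and ATG9B (-0.416 to 0.169) after Dox, LAMP1 (-0.0025 to 0.0427), GAA (-0.167 to 0.005), and ATP6V1C1 (-0.0466 to 0.0487) at 4 h, GAA (-0.044 to 0.129) and TPP1 (-0.0627 to 0.114) at 8 h, and CTSB (-0.0712 to 0.01), CTSD (-0.058 to 0.0802), GUSB (-0.0291 to 0.0089), and ATP6AP1 (-0.0604 to 0.0068) at 12 h. The cause was not tested. In 57 further values a gene no longer passed the test, and in 30 it newly passed.

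Samples with the same replicate number did not deviate together (correlation of deviations from the group means -0.027 to 0.0464). This cannot show whether samples with the same number were prepared together. With the replicate number as a block, 3 genes were called higher after Dox and 15 at 12 h, as without it, 4 in place of 3 were lower for the difference of responses, and 19 in place of 18 rose from 8 to 12 h. Depth limits the scarce genes: the DMSO samples held 23 to 31 counts of ATG9B, 38 to 56 of WIPI1, 50 to 58 of MITF, and 109 to 122 of TFEB.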
